A study of Mus musculus with 21 samples.

Results

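The 10 genes described here, Esrra, Esrrb, Esrrg, Ppara, Ppard, Rxra, Ppargc1b, Perm1, Nrip1 and Tfam, encode nuclear receptors of oxidative metabolism, the cofactors that act on them and a mitochondrial factor downstream of them. Chromatin accessibility around them was measured by ATAC-seq, in which a transposase cuts open DNA, in PCM1+ myonuclei (muscle fibre nuclei caught on beads with an antibody to PCM1) from mouse quadriceps. All mice were adult male C57/Bl6 wildtype animals, and the 21 samples formed 7 groups of 3. Trained mice had 12 weeks of voluntary wheel running and then an exhaustive treadmill bout, untrained mice had the bout alone, and each kind was taken 0, 6 or 72 h after it. The sedentary mice did no exercise. No group was trained and then left at rest, so a trained group carries the training and the bout together and these cannot be told apart. A region belonged to a gene when its nearest protein-coding transcription start site on GRCm39 was that gene's, and 106 of the 41411 regions listed in any comparison with the sedentary group met this rule.

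The oestrogen-related receptors (ERRα, ERRβ and ERRγ, from Esrra, Esrrb and Esrrg) are nuclear receptors with no known natural ligand that switch on genes of respiration and fat oxidation in muscle. They do so together with coactivators of the PGC-1 family, of which Ppargc1b encodes PGC-1β. The peroxisome proliferator-activated receptors PPARα and PPARδ sense fatty acids and bind DNA as partners of the retinoid X receptor RXRα. Perm1 encodes a muscle regulator that works with PGC-1 and ERR, Nrip1 encodes the corepressor RIP140, which holds back oxidative genes, and Tfam encodes the factor that packages and transcribes mitochondrial DNA. Exercise is known to call on this network in muscle, and the comparison with sedentary mice asks at which elements of its genes chromatin opened or closed after a bout, with and without training before it.

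Each value below is a concentration, the log2 of the mean normalised reads of a region over the samples of a group, or a difference of such group means, exercised minus sedentary. The tables hold the authors' means and no value per sample, so no spread between samples and no test can be given here, and the library depths are not given either. A region is in a table because it passed the authors' false discovery rate of 0.05, and it is called gained or lost by the sign of the difference. A region that a table does not list has no value in that group, which does not show that it was unchanged. The comparisons share the sedentary samples. The table of the untrained 72 h group has no rows. Fewer nuclei of a type and less open chromatin per nucleus cannot be told apart in such pooled nuclei.

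The sequences that carry the patterns described below are shown first, from the forward strand of GRCm39, chosen after the values and the matches were seen. Capitals mark a match to a motif on either strand. The motifs are TGANTCA, bound by the AP-1 proteins of the Fos and Jun families; TGACGTCA, the cyclic AMP response element bound by CREB; TNAAGGTCA, the ERR response element; AGGTCA, the core read by most nuclear receptors; CCGGAAG, bound by GABP; and the AT-rich site of MEF2 factors. The first line is the middle of the Esrrg region with the largest gain of all 106 in the trained 0 h group (chr1:187643026-187643325), and it holds 3 AP-1 matches. The second is a whole region 35.7 kb upstream of Nrip1 (chr16:76206281-76206578), with 2 AP-1 matches. The third is 30 bases of a region 298 bases from an internal start site of Nrip1 (chr16:76091619-76091648) and the fourth the middle of a region downstream of Rxra, in an exon of the long non-coding RNA Gm74930 (chr2:27669465-27669764), each with a cyclic AMP response element. The fifth is a whole intronic region of Esrrb (chr12:86555592-86555842) that was lost in one group and gained in others. The sixth lies upstream of Esrra (chr19:6899665-6899738), with 2 ERR response elements, whose edges farther from the gene lie 377 and 400 bases before its annotated 5′ end. The seventh is 30 bases of the Tfam promoter region (chr10:71073903-71073932) with a GABP match read on the reverse strand. It lies in an exon of Tfam, and the match is 189 bases into the gene from its annotated 5′ end.
Esrrg intron: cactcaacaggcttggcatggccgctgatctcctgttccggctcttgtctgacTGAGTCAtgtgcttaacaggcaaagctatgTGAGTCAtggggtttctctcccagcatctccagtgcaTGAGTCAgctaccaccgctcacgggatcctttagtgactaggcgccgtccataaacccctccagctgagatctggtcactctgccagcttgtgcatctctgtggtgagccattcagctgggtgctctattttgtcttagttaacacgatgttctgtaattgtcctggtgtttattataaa
Nrip1 upstream: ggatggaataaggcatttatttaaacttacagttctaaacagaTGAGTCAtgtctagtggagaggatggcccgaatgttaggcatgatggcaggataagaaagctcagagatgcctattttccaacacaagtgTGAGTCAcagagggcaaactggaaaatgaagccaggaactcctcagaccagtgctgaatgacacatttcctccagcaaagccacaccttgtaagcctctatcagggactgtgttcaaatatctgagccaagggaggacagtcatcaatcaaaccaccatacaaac
Nrip1 near an internal start: aagatcccacgTGACGTCAggaagtgagcg
Rxra downstream: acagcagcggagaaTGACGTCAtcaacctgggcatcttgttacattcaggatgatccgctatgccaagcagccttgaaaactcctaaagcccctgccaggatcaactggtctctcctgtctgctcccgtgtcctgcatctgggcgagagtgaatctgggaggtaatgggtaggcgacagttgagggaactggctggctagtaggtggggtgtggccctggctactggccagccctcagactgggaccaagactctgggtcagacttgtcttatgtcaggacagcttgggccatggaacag
Esrrb intron: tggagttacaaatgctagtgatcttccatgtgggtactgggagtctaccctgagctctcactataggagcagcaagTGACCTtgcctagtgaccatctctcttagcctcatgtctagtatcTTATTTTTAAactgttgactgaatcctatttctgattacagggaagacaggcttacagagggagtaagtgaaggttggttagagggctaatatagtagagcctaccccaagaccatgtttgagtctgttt
Esrra upstream: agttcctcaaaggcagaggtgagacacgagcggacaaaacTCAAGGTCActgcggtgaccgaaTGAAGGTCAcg
Tfam promoter: gggaagcccggaCTTCCGGtccgcggcagg

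Losses outnumbered gains over the 10 genes in every comparison under the main rule, and most gains were at Esrrg and Nrip1. In the untrained groups that order depended on the rule: with start sites of every biotype there were 9 gained and 9 lost regions in the untrained 0 h group and 4 and 4 in the untrained 6 h group, and with differences of at least 1 alone 12 gained and 11 lost in the untrained 0 h group and 9 gained and 6 lost in the untrained 6 h group. Of the 106 regions, 75 were only ever lost (70.8%) and 26 only ever gained (24.5%). The other 5 (4.72%) were gained in one table and lost in another. Over all regions these shares were 82.1%, 16.2% and 1.72%. Nrip1 had 22 regions, Rxra 21, Esrrg 19, Ppara 11, Ppargc1b 10, Esrrb 8, Ppard 7, Tfam 6, and Esrra and Perm1 1 each. By place, 49 regions were intronic, 15 touched an exon and 42 lay outside the gene, and 11 were within 1 kb of a protein-coding start site. Over all genes 7338 of the 41411 regions lay within 1 kb of one.

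In the trained 0 h group 81 of the 106 regions were listed, 20 as gained and 61 as lost. Of all 41411 regions 82.3% were listed there, and 13.1% of those were gained, against 24.7% of the listed regions of the 10 genes. In the untrained 0 h group 50 were listed, 19 as gained and 31 as lost. Of all regions 51.1% were listed in that group and 15.5% of those were gained, against 38% here. The share of gains at the 10 genes was therefore above that of all listed regions in both 0 h groups.

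That excess came from 2 genes. Esrrg and Nrip1 together had 14 gained and 13 lost regions in the trained 0 h group and 14 gained and 7 lost in the untrained 0 h group. The other 8 genes, a split made after the counts were seen, had 6 gained of 54 listed (11.1%) in the trained 0 h group and 5 of 29 (17.2%) in the untrained 0 h group, near the shares of all listed regions. Their median difference was -0.92 in the trained 0 h group and -0.85 in the untrained 0 h group, on the log2 scale.

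At 6 h after the bout the trained group listed 33 of the regions, 4 as gained and 29 as lost. There 28.4% of all regions were listed and 10.7% of those were gained, close to the 12.1% of the 10 genes. The untrained 6 h group listed 21, of which 10 were gained and 11 lost, where 20.2% of all regions were listed and 49.5% of those gained, against 47.6% here. At 72 h the trained group listed 1 region of the 10 genes, upstream of Tfam and lost, while 6.34% of all regions were listed and 1.03% of those gained. At 6 h the shares listed and gained were thus near those over all regions. At 72 h 0.943% of the 106 regions were listed, less than over all regions, and 1 region gives no usable share of gains.

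**Figure D1:**
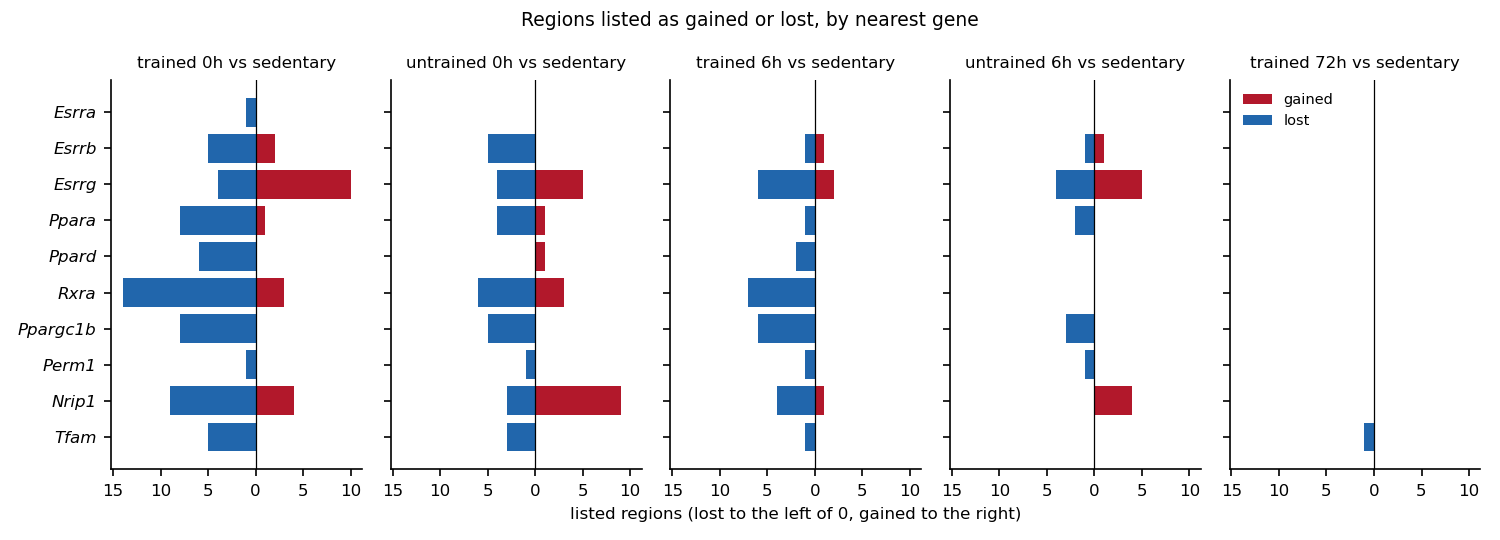
Number of listed regions of each of the 10 genes (rows) in each comparison with the sedentary group (panels), lost regions to the left of 0 and gained ones to the right. Gains stand out at Esrrg (10 in the trained 0 h group) and Nrip1 (9 in the untrained 0 h group), and Rxra has the most losses (14 in the trained 0 h group).

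The median difference over the listed regions of the 10 genes was -0.85 in the trained 0 h group, -0.71 in the untrained 0 h group, -0.84 in the trained 6 h group and -0.68 in the untrained 6 h group. Over all listed regions the median was -0.86 in the trained 0 h, -0.84 in the untrained 0 h, -0.81 in the trained 6 h and -0.55 in the untrained 6 h group. A difference of at least 1, which is a change of 2-fold or more, was seen in 46.9% of the listed regions of the 10 genes in the trained 0 h group, where all listed regions had 39.4%. In the untrained 0 h group these shares were 46% for the 10 genes and 39.2% for all listed regions, in the trained 6 h group 24.2% and 26.8%, and in the untrained 6 h group 71.4% of 21 regions and 47.8%. The single region of the trained 72 h group did not reach that size, which 18.8% of all listed regions there did.

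**Figure D2:**
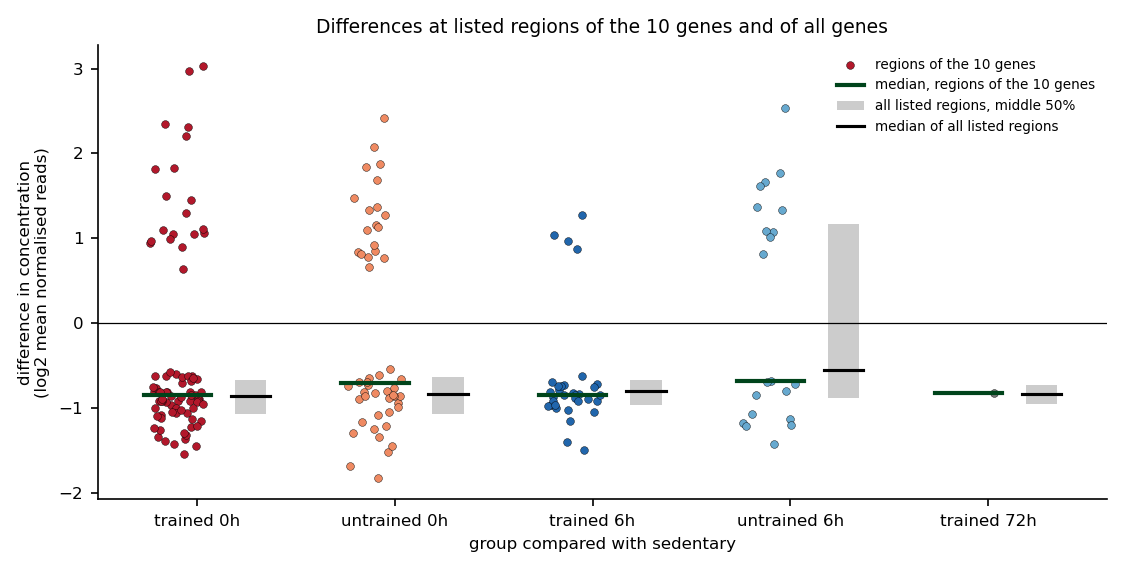
Difference in concentration (log2 mean normalised reads, exercised minus sedentary) of each listed region of the 10 genes (points, with their median as a green line) and of all listed regions (grey bar for the middle 50%, black line for the median) in the 5 comparisons. The points of the 10 genes reach 3.03 in the trained 0 h group, and their medians lie below 0 in every group.

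Esrrg, the ERR gene of oxidative and slow muscle, is 606 kb long (chr1:187340988-187947082) and showed only losses in its first part. All the gene's gains, with further losses, lay in the rest. All 6 listed regions between 36.6 and 83.2 kb from its 5′ end were only lost, and all 6 lay over 1 or both of the long non-coding RNA genes Gm55759 and Gm70418. Of the 12 listed regions from 152 kb onward, 10 were gained in at least 1 table. The gene had 10 gained and 4 lost regions in the trained 0 h group, 5 gained and 4 lost in the untrained 0 h group, 2 gained and 6 lost in the trained 6 h group and 5 gained and 4 lost in the untrained 6 h group.

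The largest gain lay 302 kb into the gene, in an intron (chr1:187642699-187643651, the region of the first sequence above). Its concentration was 10.36 in the trained 0 h group and 9.21 in the untrained 0 h group, 8.37 in the trained 6 h group and 9.10 in the untrained 6 h group, against 7.33 in the sedentary group. All 4 listed means lay above the sedentary mean, and the highest was 8.17 times it on the linear scale. The trained mean exceeded the untrained one by 1.151 at 0 h, and the trained minus untrained difference was -0.73 at 6 h.

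Other gains were nearly as large. A region 322 kb into the gene had differences of 2.35 in the trained 0 h group, 2.41 in the untrained 0 h group and 1.67 in the untrained 6 h group. One at 409 kb had 2.31 in the trained 0 h group and 1.37 in the untrained 6 h group. At 367 kb the difference was 2.21 in the trained 0 h group and 0.77 in the untrained 0 h group, so that the trained mean was 1.44 higher, the widest such gap among the 37 regions of the 10 genes listed in both 0 h tables. In the trained 0 h group 8 Esrrg regions had gained by 1 or more and 4 of these by 2 or more.

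The losses in the first part were of moderate size. The region 66.3 kb into the gene (chr1:187406982-187407506) was listed as lost in 4 tables, with differences of -0.92 in the trained 0 h group, -1.68 in the untrained 0 h group, -1.151 in the trained 6 h group and -1.18 in the untrained 6 h group. The lowest value of the trained 0 h group, -0.96, was at 53.5 kb, where the untrained 0 h group had -1.21. The lowest Esrrg value of the trained 6 h group, -1.50, was at a region 293 kb in, which had -1.14 in the untrained 6 h group, and that of the untrained 6 h group, -1.22, was at 83.2 kb. At the Esrrg region within 1 kb of a start site, an internal one 389 kb into the gene, only the trained 6 h group had a listed value, -0.83.

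One Esrrg region turned with time. At 299 kb (chr1:187640006-187640533), the listed region before that of the largest gain, the concentration was 9.13 in the trained 0 h group and 8.45 in the untrained 0 h group, and 6.87 in the trained 6 h group and 6.83 in the untrained 6 h group, against 7.68 in the sedentary group. Both 0 h means lay above the sedentary mean and both 6 h means below it.

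**Figure D3:**
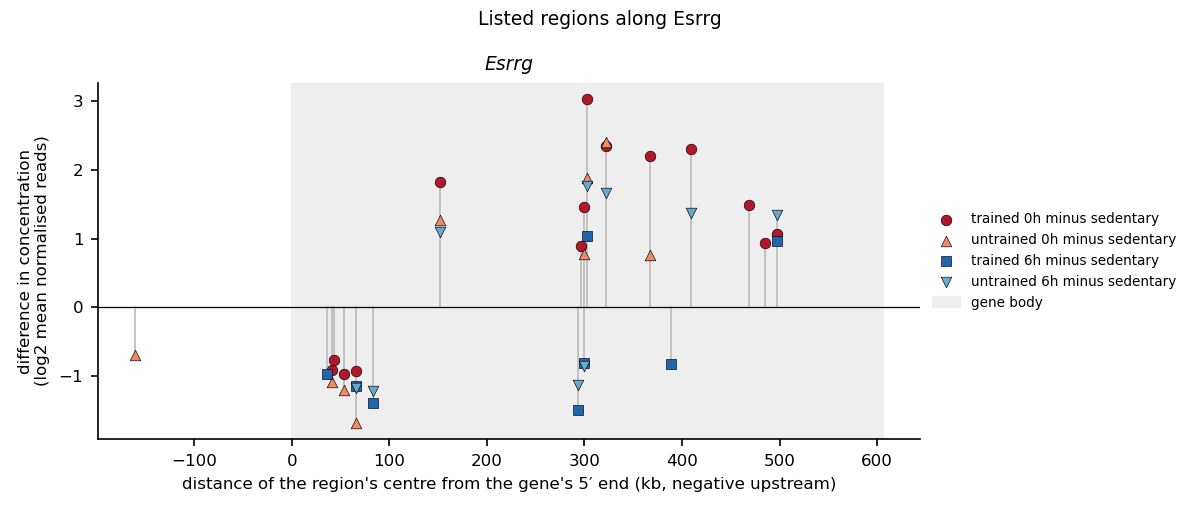
Difference in concentration (log2 mean normalised reads, exercised minus sedentary) of each listed Esrrg region against the distance of its centre from the gene's 5′ end in kb, with symbols for the 4 groups that list regions there and the gene body shaded. The regions between 36.6 and 83.2 kb were only lost, and the gains, all from 152 kb on, reach 3.03. Losses also lie upstream of the gene and at 293, 299 and 389 kb.

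Esrrb, whose product ERRβ is best known for its part in stem cells and is also expressed in muscle, had 8 listed regions (gene at chr12:86407887-86568409), none of them outside the gene. The trained 0 h group had 2 gained and 5 lost, and the untrained 0 h group 0 gained and 5 lost. The region over the 5′ start site was gained in the trained 0 h group alone among the tables, with a concentration of 10.14 against 9.04 in the sedentary group. A region at an internal start site, 60.6 kb in, was instead listed as lost, with -0.71 in the trained 0 h group and -0.81 in the untrained 0 h group. The lowest Esrrb value, -1.42 in the trained 0 h group, lay 122 kb into the gene, where the untrained 0 h group had -0.82. The region at 132 kb was lost in 4 tables, by -0.60 in the trained 0 h group, -0.76 in the untrained 0 h group, -0.84 in the trained 6 h group and -0.71 in the untrained 6 h group.

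The intronic Esrrb region 148 kb in (the fifth sequence above, with an AGGTCA and a MEF2 match) had a concentration of 5.95 in the untrained 0 h group, 7.62 in the trained 6 h group and 7.82 in the untrained 6 h group, against 6.74 in the sedentary group. It was therefore below the sedentary mean at 0 h and above it at 6 h, the opposite order from the turning Esrrg region. The trained 0 h table does not list it. Whether such changes of direction differ beyond the spread between samples was not tested.

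Esrra, the main ERR gene of muscle and one that ERRα is known to bind itself, had 1 region. It was 5837 bases wide (chr19:6896896-6902732), covered the 5′ end of the gene and was lost in the trained 0 h group, with a concentration of 12.80 against 13.62 in the sedentary group. The same region covers a start site of Catsperz and overlaps Kcnk4, so its signal cannot be given to Esrra alone. The 2 ERR response elements shown above lie in its middle.

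Ppara encodes the receptor that drives fat oxidation in fasting and exercise, and all 11 of its listed regions lay upstream of the gene (chr15:85618656-85687067), 9 of them over the long non-coding RNA gene Lncppara. When start sites of non-coding genes were counted too, 0 of the 11 stayed with Ppara, so each count and value here rests on the use of protein-coding start sites. The trained 0 h group had 1 gained and 8 lost, and the untrained 0 h group 1 gained and 4 lost. The lowest value of both 0 h groups was at a region 42.3 kb upstream, with -1.45 in the trained 0 h group and -0.94 in the untrained 0 h group. At all 4 regions listed in both 0 h tables the trained mean was below the untrained one, with a median difference of -0.33. The single region listed in 4 tables, 66.9 kb upstream, had -0.93 in the trained 0 h group, -0.64 in the untrained 0 h group, -0.74 in the trained 6 h group and -0.68 in the untrained 6 h group. One region, 28.4 kb upstream, also overlaps the microRNA gene Mirlet7c-2 and had -1.06 in the trained 0 h group and -0.70 in the untrained 0 h group. The gains were at different regions in the 2 groups, with 1.05 in the trained 0 h group 16.4 kb upstream and 0.66 in the untrained 0 h group 35.6 kb upstream.

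Ppard, the PPAR gene most linked to endurance in muscle (chr17:28451674-28520448), had 6 lost regions and 0 gained in the trained 0 h group, where its values ran between -1.13 and -0.66. The untrained 0 h group listed a single region of it, a gain of 1.09 in an intron 27.5 kb into the gene. At the region over an internal start site, 39.5 kb in, the concentration was 8.96 in the trained 0 h group against 10.02 in the sedentary group. The lowest value, -1.13, came from a region 6.55 kb upstream that overlaps the neighbouring gene Def6. In the trained 6 h group 2 regions were lost, by -0.84 and -0.74.

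Rxra encodes the partner that PPARs need to bind DNA, and it had the most losses of the 10 genes in the trained 0 h group (gene at chr2:27566452-27653330). There 14 regions were lost and 3 gained, against 6 lost and 3 gained in the untrained 0 h group, 7 lost and 0 gained in the trained 6 h group and no listed region in the untrained 6 h group. The wide region over its 5′ start site (5403 bases) had a concentration of 12.40 in the trained 0 h group against 13.25 in the sedentary group. A region at an internal start site 48.7 kb in had -0.93 in the trained 0 h group. The lowest value of both 0 h groups was 58.3 kb in, with -1.55 in the trained 0 h group and -1.45 in the untrained 0 h group, and the trained 6 h group still had -0.91 there.

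The largest gain at Rxra lay 103 kb from its 5′ end, past the end of the gene (chr2:27669141-27670088, the fourth sequence above). Its concentration was 9.74 in the trained 0 h group and 10.59 in the untrained 0 h group, against 8.75 in the sedentary group. The trained mean was thus nearer to the sedentary one, with a trained minus untrained difference of -0.85, the lowest among the 37 regions. An intronic region 71.7 kb in gave 1.10 in the trained 0 h group and 0.82 in the untrained 0 h group. Another, 60.2 kb in, turned within the trained groups, with a concentration of 8.76 at 0 h and 7.16 at 6 h, against 8.12 in the sedentary group.

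**Figure D4:**
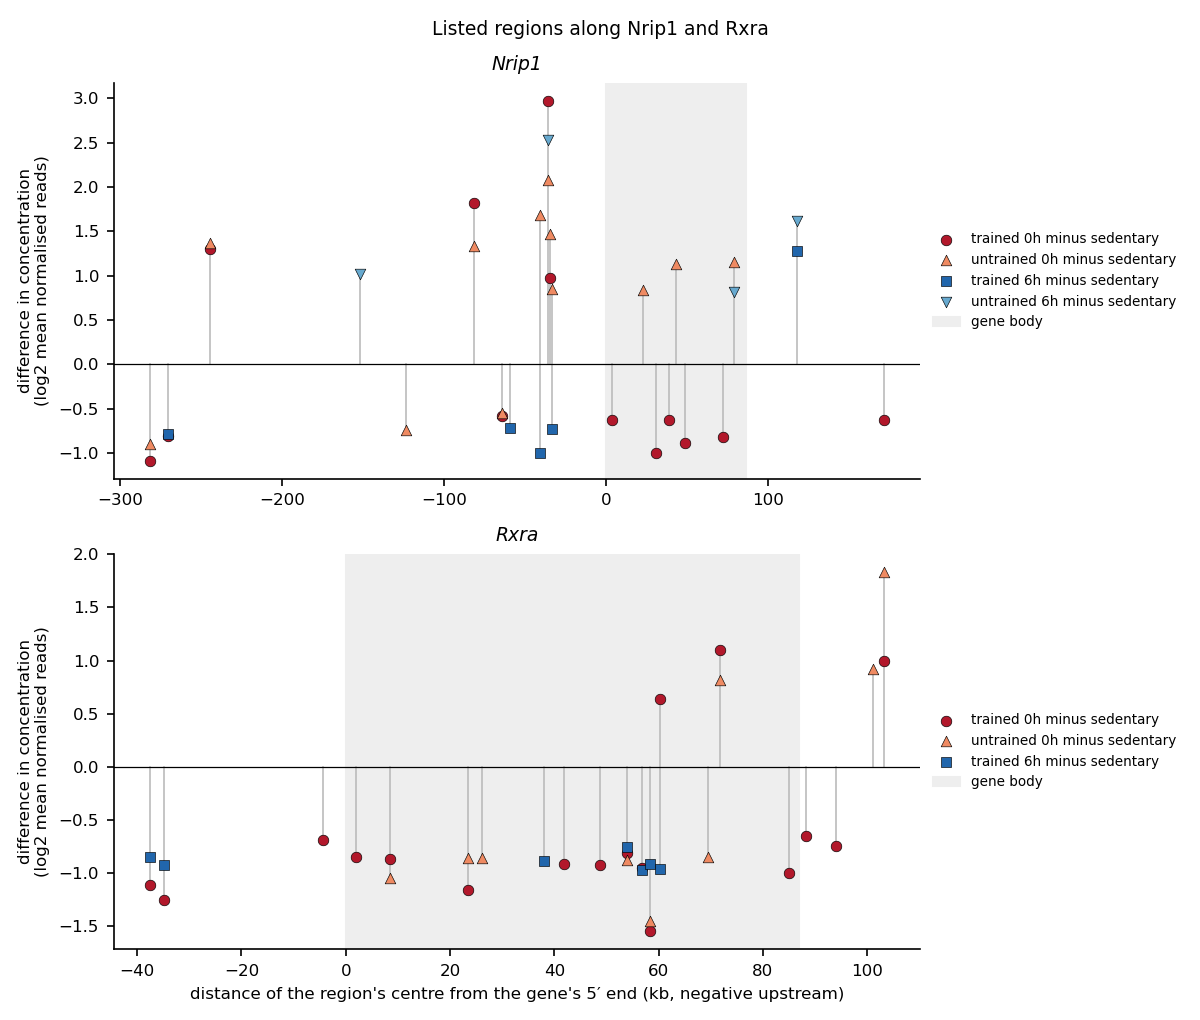
Difference in concentration (log2 mean normalised reads, exercised minus sedentary) of each listed Nrip1 (top) and Rxra (bottom) region against the distance of its centre from the gene's 5′ end in kb, with symbols for the groups and the gene body shaded. Of the 11 Nrip1 regions ever gained 7 lie upstream of the gene, as do 12 of all 22, and the highest value is 2.97 at 35.7 kb upstream. Within Rxra most values lie below 0.

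Ppargc1b, for the coactivator PGC-1β, was listed only as lost, at all 10 of its regions. The trained 0 h group had 8 lost regions, the untrained 0 h group 5, the trained 6 h group 6 and the untrained 6 h group 3. The region over its 5′ start site, 4914 bases wide, also covers Mir378a, a microRNA gene inside Ppargc1b, and had a concentration of 12.60 in the trained 0 h group against 13.51 in the sedentary group. The strongest loss was 16 kb upstream, where the concentration was 7.84 in the trained 0 h group, 7.40 in the untrained 0 h group, 8.60 in the trained 6 h group and 8.03 in the untrained 6 h group, against 9.23 in the sedentary group. The differences there were -1.40 in the trained 0 h group and -1.83 in the untrained 0 h group, the lowest of the untrained 0 h group over the 10 genes. At 65.6 kb upstream the trained 0 h group had -1.29, the trained 6 h group -1.04 and the untrained 6 h group -1.43.

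The related gene Ppargc1a, for PGC-1α, is not one of the 10 and moved in another way. It had 23 gained and 6 lost regions in the trained 0 h group and 22 gained and 8 lost in the untrained 0 h group, with median differences of 2.90 in the trained 0 h group and 1.57 in the untrained 0 h group. In the 6 h groups it had 1 gained and 2 lost (trained) and 2 gained and 6 lost (untrained).

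Perm1 had a single region, over a coding exon 4.30 kb into the gene (chr4:156304371-156304880), that was lost in 4 tables. Its concentration was 8.15 in the trained 0 h group, 7.997 in the untrained 0 h group, 8.65 in the trained 6 h group and 8.72 in the untrained 6 h group, against 9.52 in the sedentary group. All 4 exercised means were lower than the sedentary mean, the 0 h means more so, with differences of -1.37 in the trained and -1.52 in the untrained group.

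Nrip1, for the corepressor RIP140 (chr16:76084280-76170774), had 4 gained and 9 lost regions in the trained 0 h group and 9 gained and 3 lost in the untrained 0 h group. These counts differ through regions listed in 1 of the 2 tables: of the 6 listed in both, 4 were gained and 2 lost in either group, which share the sedentary samples. Inside the gene the trained 0 h group listed 5 regions as lost and 0 as gained, and the untrained 0 h group listed 3 as gained and 0 as lost. These were different regions, each with no value in the other group, so the trained and untrained means could not be compared at any of them.

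The largest Nrip1 gain was at the 298-base region 35.7 kb upstream (the second sequence above). Its concentration was 8.21 in the trained 0 h group, 7.32 in the untrained 0 h group and 7.78 in the untrained 6 h group, against 5.25 in the sedentary group. The trained 0 h mean was 7.83 times the sedentary mean on the linear scale, and the trained minus untrained difference at 0 h was 0.89. All 4 listed regions within 45 kb upstream of the gene were gained in at least 1 table.

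A pair of these 4 regions turned. The one 40.8 kb upstream had a concentration of 8.87 in the untrained 0 h group and 6.18 in the trained 6 h group, against 7.19 in the sedentary group. The one 33.2 kb upstream had 11.85 in the untrained 0 h group and 10.27 in the trained 6 h group, against 10.999 in the sedentary group. In both the gain was in the untrained and the loss in the trained mice, at different times, and neither was listed in the trained 0 h or untrained 6 h tables.

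At the region with the cyclic AMP response element, 79.0 kb into Nrip1 and 298 bases from an internal start site, the difference was 1.16 in the untrained 0 h group and 0.81 in the untrained 6 h group. The other region within 1 kb of a start site, 48.7 kb in, had -0.89 in the trained 0 h group. The lowest value of both 0 h groups was far upstream, at 281 kb, with -1.09 in the trained 0 h group and -0.90 in the untrained 0 h group. At 6 h the highest trained value was 1.28, at a region downstream of the gene 118 kb from its 5′ end, where the untrained 6 h group had 1.62.

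Tfam was listed only as lost, at 6 regions (gene at chr10:71061287-71074110), 5 in the trained 0 h group, 3 in the untrained 0 h group, and 1 each in the trained 6 h and trained 72 h groups. The promoter region had a concentration of 10.32 in the trained 0 h group against 11.53 in the sedentary group. The lowest value of both 0 h groups was downstream of the gene, 28.2 kb from its 5′ end, with -1.24 in the trained 0 h group and -1.17 in the untrained 0 h group. A wide region 13.6 kb upstream had -1.10 in the trained 0 h group, -0.86 in the untrained 0 h group and -0.89 in the trained 6 h group. The region listed at 72 h, 11 kb upstream, had a concentration of 8.15 in the trained 72 h group against 8.97 in the sedentary group and no listed value at earlier times.

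**Figure D5:**
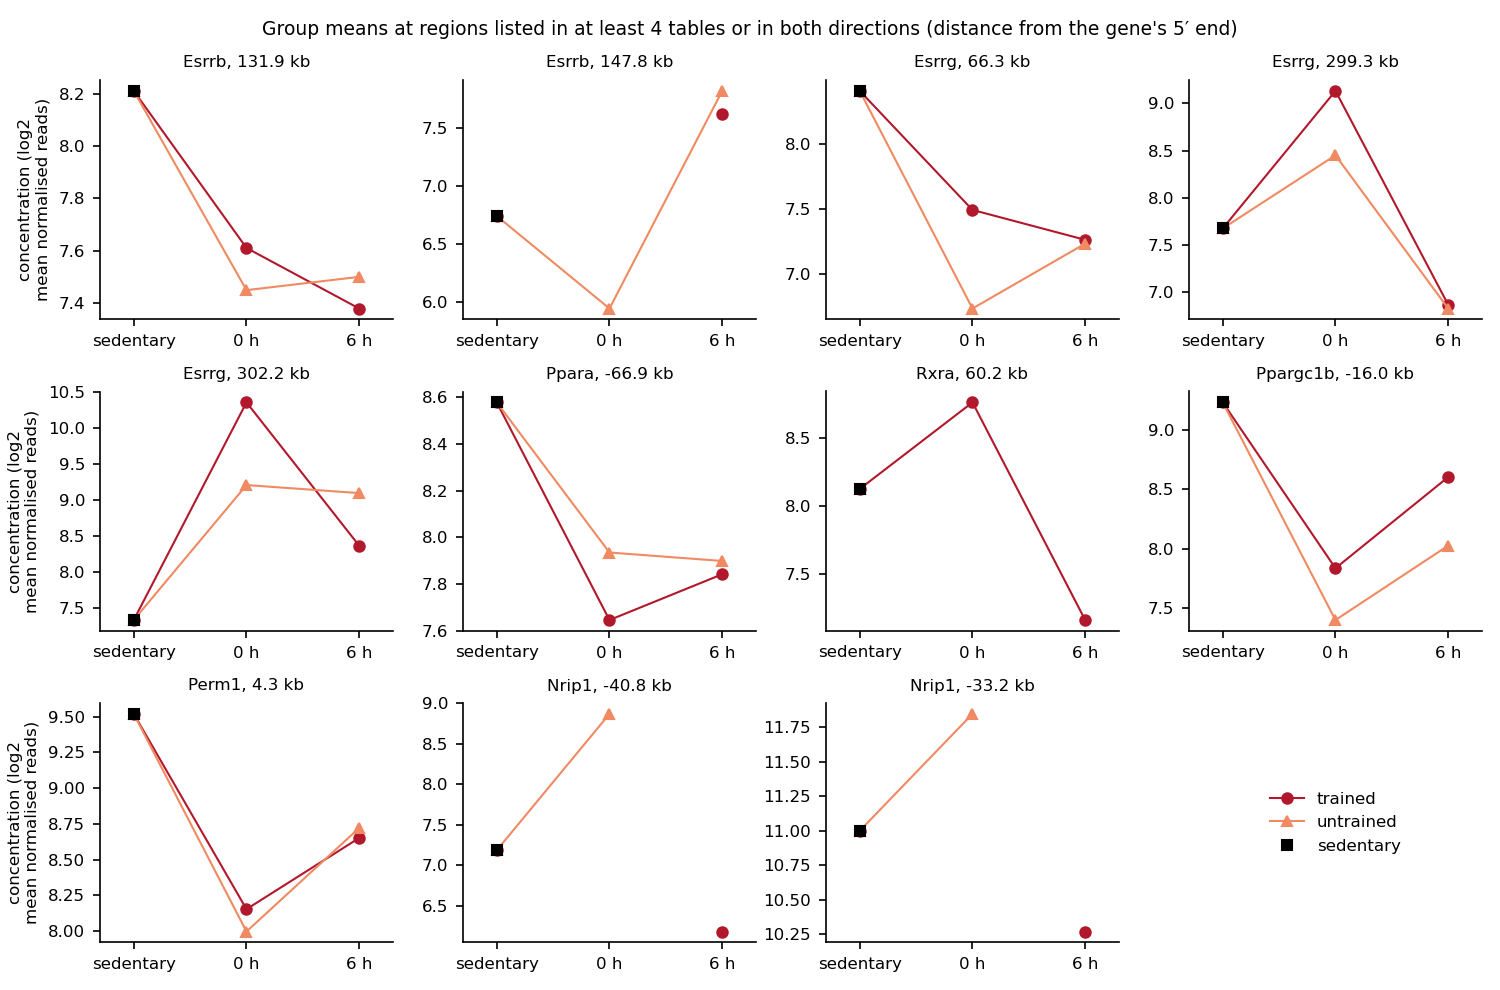
Concentration (log2 mean normalised reads) in the sedentary group and 0 and 6 h after the bout, for trained (circles) and untrained (triangles) mice, at the 11 regions of the 10 genes listed in at least 4 tables or in both directions, each named by gene and distance from its 5′ end. A missing point is a group whose table does not list the region. The Esrrg region at 302 kb stays above the sedentary level, the Perm1 region below it, and those at Esrrg 299 kb and Esrrb 148 kb cross it.

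Of the 106 regions 7 were listed in 4 tables and 0 in all 5. Over all regions 7.20% were listed in 4 tables and 1.17% in all 5. Whether the 10 genes differ from these shares was not tested. At the 37 regions listed in both 0 h tables the trained mean was higher in 18 and lower in 19, with a median difference of -0.03. Over all 17265 such regions the trained mean was higher in 6526 and lower in 10739, with a median difference of -0.09. At Esrrg the trained mean was higher in 7 of 8, with a median of 0.62. These include regions lost in both groups, at 41.3, 53.5 and 66.3 kb, where a higher trained mean is a smaller loss. At 6 h the Esrrg trained mean was higher in 2 and lower in 4 regions, with a median of -0.27. Ppargc1b also had a positive median at 0 h, 0.30, with the trained mean higher in 3 and lower in 2 regions. Its median at 6 h, over 2 regions, was 0.48. Perm1 had 0.16 at 0 h in its 1 region, and the Esrrb, Nrip1 and Rxra medians at 0 h were -0.08, -0.05 and -0.01. At all 4 Ppara and all 3 Tfam regions the trained mean was lower at 0 h, which was also the more frequent direction over all regions. At 6 h the trained mean was higher in 4 and lower in 9 of 13 regions, with a median of -0.12. Over all 4778 such regions it was higher in 1324 and lower in 3454, with the same median. These regions were chosen by being listed in both tables, and no spread between samples stands behind the differences.

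The regions within 1 kb of a start site were mostly lost. In the trained 0 h group 8 of the 11 were lost, with Esrra, Rxra, Ppargc1b, Ppard and Tfam among them, and 1, at the 5′ start of Esrrb, was gained. The untrained 0 h group listed 2 of the 11, a gain at Nrip1 and a loss at Esrrb. Over all genes 6722 of 7338 such regions were lost in the trained 0 h group and 1844 in the untrained 0 h group.

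The gained regions were narrower and less open at rest than the lost ones. Regions only ever gained had a median width of 478.5 bases and a median sedentary concentration per kb of 8.23, against 700 bases and 9.79 per kb for those only ever lost. All regions showed the same order, with 508 bases and 8.56 per kb for gained and 594 bases and 10.003 per kb for lost ones. The sedentary mean is part of the difference that sorts regions into gained and lost. The order in sedentary concentration is therefore not independent of that sorting and is no separate result. The median GC content of the middle 300 bases was 50.3% for the gained and 53.7% for the lost regions of the 10 genes, where all gained regions had 48.3% and all lost ones 51.7%.

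Motifs were searched on both strands in the 300 bases around each region's centre. The AP-1 motif TGANTCA was found in 7 of the 26 regions only ever gained (26.9%) and in 6 of the 75 only ever lost (8%), where all gained regions had 45.4% and all lost ones 7.02%. Esrrg had it in 5 of its 9 gained regions and Nrip1 in 2 of 9. The cyclic AMP response element occurred in 2 regions, those of Nrip1 and Rxra shown above, both of them only gained, while 0.852% of all regions held it. Over all genes it was in 2.31% of the regions only gained and 0.536% of those only lost.

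The receptor core AGGTCA, which is also part of the ERR response element, was found in 24 of the 106 regions (22.6%), against 24.3% of all regions. It was in 3 of the 26 gained (11.5%) and 18 of the 75 lost regions (24%), where all gained regions had 27.01% and all lost ones 23.5%, so that the share of the lost regions was near the background and that of the gained ones, from 3 matches, below it. The ERR response element was in 3 regions, those of Esrra, of Ppargc1b at 16 kb upstream and of Rxra at 38.0 kb, all 3 only lost, against 2.20% of all regions. Over all regions it was in 2.19% of those only gained and 2.20% of those only lost. The Esrrg region with the largest gain also held 1, outside the 300 bases searched. AGGTCANAGGTCA, the direct repeat read by PPAR with RXR, was in none of the 106, and 0.0555% of all regions held it. GABP matches were in 1 region (0.943%), the Tfam promoter, against 3.90% of all regions, and GCGCANGCGC, the NRF1 motif, was in 0, against 1.03%. The MEF2 site was in 8 regions (7.55%), against 6.79% of all. The GABP and NRF1 motifs were added after the data were seen, and a match is a stretch of letters, not a bound site.

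The wider network was followed through 5 lists of genes, whose regions were counted in the same way. Of the 21751 protein-coding genes of the annotation, 49.9% had a lost and 11.9% a gained region in the trained 0 h group, against 32.2% and 8.97% in the untrained 0 h group. The counts below are descriptions to be read beside these shares, and whether any list differs from other genes was not tested. Among 15 partner nuclear receptors, 11 had a lost region and 4 a gained one in the trained 0 h group, against 9 and 4 in the untrained 0 h group. The largest gain was at Rora, a receptor of the clock and lipid metabolism, with 0.76 in the trained 0 h group and 2.03 in the untrained 0 h group. Pparg, the PPAR of fat cells, had a region with 1.23 in the trained 0 h group and Vdr, the vitamin D receptor, one with 1.153 in the trained and 1.08 in the untrained 0 h group. The lowest values were at Nr2f2 (COUP-TFII), with -2.23 in the trained 0 h group and -2.11 in the untrained 0 h group, at the thyroid hormone receptor gene Thrb, with -1.18 in the trained and -2.10 in the untrained 0 h group, and at another Rora region, with -1.57 in the trained and -1.77 in the untrained 0 h group. The Nr2f2 region was listed in all 5 tables and still had -0.78 in the trained 72 h group.

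Among 18 coactivators and corepressors, 16 had a lost and 8 a gained region in the trained 0 h group, against 8 and 6 in the untrained 0 h group. By regions rather than genes, the trained 0 h group had 39 gained and 69 lost and the untrained 0 h group 33 gained and 31 lost, of which Ppargc1a gave 23 gained and 6 lost in the trained and 22 gained and 8 lost in the untrained 0 h group. In the untrained 6 h group the list had 15 gained and 10 lost regions, where 49.5% of all listed regions were gained. Ppargc1a had both the highest value, 3.73 in the trained 0 h group, and the lowest, -2.60 in that group. The acetyltransferase gene Crebbp had a region with 1.60 in the trained 0 h group, 1.153 in the trained 6 h group and 2.32 in the untrained 6 h group. The steroid receptor coactivator genes Ncoa1 and Ncoa3 had the next lowest values, -1.82 and -1.77 in the trained 0 h group.

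Among 19 factors of mitochondrial biogenesis, 15 had a lost and 4 a gained region in the trained 0 h group, against 8 and 3 in the untrained 0 h group. The highest values in the trained 0 h group were 1.13 at Opa1, which fuses mitochondrial inner membranes, 1.10 at Mef2c and 0.89 at Mef2d, both muscle transcription factors. The lowest in that group were -1.80 at another Mef2c region, -1.60 at Mfn2, which fuses outer membranes, and -1.54 at Nrf1, a regulator of respiratory genes.

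Of 23 genes of fatty acid and ketone use, 17 had a lost and 5 a gained region in the trained 0 h group, against 14 and 1 in the untrained 0 h group. Gains in the trained 0 h group reached 1.73 at Acsl1, which activates fatty acids, 1.43 at the lipoprotein lipase gene Lpl and 1.34 at the lipid droplet gene Plin2. Losses reached -1.59 at another Lpl region and -1.49 at another Plin2 region in the trained 0 h group, and -1.04 in the trained and -1.74 in the untrained 0 h group at Cd36, the fatty acid transporter gene.

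Of 20 genes of respiration and the citric acid cycle, 16 had a lost and 2 a gained region in the trained 0 h group, against 11 and 2 in the untrained 0 h group. In the untrained 6 h group 4 had a lost and 4 a gained region, and by regions 4 were gained and 5 lost. There 49.5% of all listed regions were gained, and the share over all genes was counted for the 0 h groups only. The largest 0 h gain was at Slc25a4, the muscle ADP/ATP carrier gene, with 1.66 in the trained and 1.64 in the untrained 0 h group. The lowest values in the trained 0 h group were -1.73 at Suclg1, -1.57 at Idh3a and -1.50 at Cox4i1, all genes of mitochondrial enzymes. The highest region of Idh3a in that group was itself at -0.53.

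The purity of the nuclei could be looked at only through regions that changed. Of 12 myofibre marker genes 11 had a listed region, all but Myh7, and of 16 markers of other cell types 13 had one. At least 12011 of the 21751 protein-coding genes had one too. A listed region need not lie at its gene. The highest 0 h values among markers of other cells came from regions 566263 bases from a start site of Cdh5, 586624 from Ptprc and 1178 from Pecam1. In the trained 0 h group 11 myofibre markers had a lost and 3 a gained region, and 12 markers of other cells a lost and 3 a gained one. In the untrained 0 h group these were 9 and 1 for myofibre markers and 9 and 3 for the others. Median sedentary concentrations over their regions were 9.78 for myofibre markers and 8.38 for the others. The part of other cell types in the results was not tested.

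The genes most like the members were sought among 12011 other genes by the Euclidean distance of log2(count + 1) over the 10 counts of gained and lost regions in the 5 tables, for members with at least 10 listings. Tfam had 3 genes with the same 10 counts, Adgrl1, Crb2 and Mrpl35. Next to Ppargc1b, all of them with losses only, were Pik3cd (distance 0.27), Prkg1 (0.45) and Afap1l1 (0.50). Next to Esrrb were Akr1d1 and Ramp1 (both 0.64) and Gpatch2 (0.83), and next to Ppara were Sema6a (0.69), Atosa (0.94) and AA414768 (1.06). At the members with the most listings the nearest genes lay farther. No cutoff for a near match was set, and the distances were not adjusted for the number of listings. Esrrg was nearest to Hif1a (1.38), Cux1 (1.66) and Fhod3 (1.68), Rxra to Gucd1 (1.46), Dapk1 (1.63) and Tex2 (1.99), and Nrip1 to Ergic1 (1.51), Tsc22d3 (1.59) and Fry (1.77). Hif1a, the nearest gene to Esrrg, had 8 gained and 3 lost regions in the trained 0 h group and 3 gained and 3 lost in the untrained 0 h group.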

How the data were processed

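Libraries were made from PCM1+ myonuclei of 21 samples in 7 groups of 3; nothing in the labels says that these were separate mice. The authors removed adapters (Trimmomatic 0.39), aligned to GRCm39 (Bowtie2 2.4.4, up to 10 alignments per read; SAMtools 1.15), and found open regions (Genrich 0.6.1). The authors then compared groups in DiffBind 3.4.11 with DESeq2 and assigned genes (ChIPseeker 1.30.3). Deposited rows are regions under a false discovery rate of 0.05, with group concentrations as log2 mean normalised reads. Their fold, p-value and false discovery rate columns and their 10 split tables were not used. The sedentary mean of a region was identical in every table (largest spread 0).

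Differences were taken here as exercised minus sedentary concentration. Each region went to the gene with the nearest protein-coding start site of GENCODE M39, because only 3.48% of 17292 deposited transcript positions fell within 1 kb of their GRCm39 position. Named regions were those within 1 kb of a start site, with the highest or lowest difference per table, or listed in at least 4 tables, and the 3 highest and 3 lowest genes of each list; other named regions were chosen after their values were seen. Sequences came from the GRCm39 genome. The motif search was tested only for finding sites planted in simulated sequences of C and G, for every motif but that of MEF2. False matches were not tested. The members and lists were chosen with earlier results of these data known. Python 3.11.15, pandas 2.3.3, numpy 2.4.6 and matplotlib 3.10.9 were used. Alternatives changed the gene given to a region, its distance limit, the size of the difference and its mean concentration. Some genes that the rule names are not reported here.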

Additional observations from a re-analysis of the deposited data

How the results depend on the processing

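No paired analysis was possible because the tables give group means only, and no sample was left out for the same reason. Each count of gained and lost regions and each median was taken again under 6 alternatives, which gave 85 values: 49 lay within 1.5 times the reported one, 32 moved further and 4 medians changed sign. The limit of 100 kb from a start site moved none of its 15. Under the symbols that the tables give, gains became 11 in the untrained 0 h group, and losses 29 (trained 0 h), 14 (untrained 0 h), 16 (trained 6 h) and 0 (trained 72 h). With start sites of every biotype 38 of the 106 regions stayed with the 10 genes and 0 of the 11 of Ppara. Gains became 7 (trained 0 h), 9 (untrained 0 h), 2 (trained 6 h) and 4 (untrained 6 h), losses 22 (trained 0 h), 9 (untrained 0 h), 12 (trained 6 h), 4 (untrained 6 h) and 0 (trained 72 h), and the median turned to 0.056 in the untrained 0 h and 0.049 in the untrained 6 h group. Counting regions over the gene or within 10 kb of a start site gave 10 gains in the untrained 0 h group and 0 losses in the trained 72 h group. With differences of at least 1 alone, losses became 23 (trained 0 h), 11 (untrained 0 h), 6 (trained 6 h), 6 (untrained 6 h) and 0 (trained 72 h) and gains 12 (untrained 0 h), 2 (trained 6 h) and 9 (untrained 6 h), and the median turned to 1.09 in the untrained 0 h and 1.08 in the untrained 6 h group, since smaller differences, most of them losses, were left out. With regions at or above the median mean concentration, gains became 4 (trained 0 h), 4 (untrained 0 h), 0 (trained 6 h) and 1 (untrained 6 h) and losses 36 (trained 0 h), 18 (untrained 0 h), 15 (trained 6 h), 5 (untrained 6 h) and 0 (trained 72 h). Without a value per sample, no difference here has an error, and regions that missed the authors' threshold have no value.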
